A study of Mus musculus with 12 samples.

Results

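Homeostatic microglia genes are the genes by which resting microglia, the resident macrophages of the central nervous system, are told from other cells. They were followed here through 10 genes, P2ry12, P2ry13, Tmem119, Cx3cr1, Sall1, Siglech, Gpr34, Csf1r, Olfml3 and Aif1, out of 54838 genes in the count tables. Each was found by the mouse symbol of its Ensembl identifier, and all 10 passed the filter on low counts, as did 31109 genes in all. Microglia depend on signals that enter through Csf1r, scan the tissue with processes steered by purine and chemokine receptors, and hold their identity through factors such as Sall1. In many models of injury and demyelination, reactive microglia are described as losing part of this homeostatic program while they take up debris.

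The study asked how the DNA hydroxymethylase Tet1, acting in the oligodendrocyte lineage, shapes gene expression during myelin repair. RNA came from spinal cord of P60 mice, 3 libraries in each of 4 groups. Control mice were Olig1+/+;Tet1fl/fl and mutant mice were Olig1cre/+;Tet1fl/fl, so that both carried the floxed Tet1 alleles and only the mutants carried Cre, which is expressed from the Olig1 locus in the oligodendrocyte lineage and removes exon 4 of Tet1. Each genotype was sampled in the demyelinated region 4 days after lysolecithin (LPC), which strips myelin where it is injected (4dpl), and in uninjected tissue from the other side of the cord (unlesioned). Cells were freed with papain and enriched for oligodendroglia on a Percoll gradient with no sorting, so microglia and other cells of the suspension were sequenced along with the cells the recombination targets. Mice of either sex were used, and the labels do not say which libraries came from 1 mouse, so that p-values measure the spread between these libraries.

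The promoters of the neighbouring ADP receptor genes P2ry12 and P2ry13 are shown because the pair moved together across the libraries (Pearson's r = 0.981). The 10 genes as a whole did so too, with a median r of 0.926 over 45 pairs. After each group's mean was removed, P2ry12 was closer to Cx3cr1 (0.976), and P2ry13 to Csf1r (0.970), than the pair were to each other (0.959). The promoters are RefSeq sequences of GRCm38.p6, from 250 bases before to 50 bases after the annotated start, 5′ to 3′ on the minus strand, P2ry12 at chr3:59262936-59263235 and P2ry13 at chr3:59210833-59211132. Capitals mark matches, on either strand, to AGGAAG or GAGGAA, letters found in the purine-rich core of sites for ETS factors such as PU.1 (Spi1), the myeloid lineage factor.
P2ry12: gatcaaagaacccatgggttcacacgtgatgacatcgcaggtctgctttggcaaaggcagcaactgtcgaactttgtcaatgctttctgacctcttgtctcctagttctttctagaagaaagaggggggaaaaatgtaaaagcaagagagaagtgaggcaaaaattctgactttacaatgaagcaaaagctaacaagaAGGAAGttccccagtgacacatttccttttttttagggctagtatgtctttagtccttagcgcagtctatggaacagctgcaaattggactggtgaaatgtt
P2ry13: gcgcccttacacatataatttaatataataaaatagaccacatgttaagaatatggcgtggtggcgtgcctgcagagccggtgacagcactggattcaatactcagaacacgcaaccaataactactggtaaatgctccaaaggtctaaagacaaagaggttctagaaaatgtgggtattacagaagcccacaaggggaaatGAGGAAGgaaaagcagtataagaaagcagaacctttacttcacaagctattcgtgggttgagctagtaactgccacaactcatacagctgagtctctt
The P2ry12 promoter held 1 match to AGGAAG, and the P2ry13 promoter held 1 match to each, which overlap. RefSeq promoters were at hand for 7 of the 10 genes, 9 promoters in all. AGGAAG occurred in 4 of the 9, of Olfml3, P2ry12, P2ry13 and Sall1, and in 35.4% of 32851 promoters of the same length. GAGGAA occurred in 3 of the 9, of Aif1, P2ry13 and Siglech, and in 28.3% of all promoters. These short motifs are common, and a match is a string of letters and not a measured site.

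Total counts were between 34805086 and 67251544 per library, and the 10 genes had from 2182 to 250393 counts each, so that the number of libraries limited precision more than counting did. Levels are given as CPM, the count as a share of the TMM-scaled library. Tet1 itself, counted over the whole gene in all cells, was at 14.9 to 18.3 CPM in the control unlesioned libraries and 9.94 to 16.4 CPM in those labelled mutant, and at 4dpl at 11.7 to 12.5 CPM in the control and 10.9 to 21.5 CPM in those labelled mutant. These values do not separate the genotypes, which are taken from the labels. The suspensions were labelled as enriched for oligodendroglia, and the myelin gene Mbp was at 3642 CPM or more in each, but the 6 neutrophil genes summed to between 19217 and 106696 CPM and the 5 erythroid genes to between 10892 and 89200 CPM. The 10 homeostatic genes together made up between 2167 and 11506 CPM.

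The 10 genes lie on 8 chromosomes of GRCm38, and all are protein coding. P2ry12 (ENSMUSG00000036353, chr3:59216272-59262871, minus strand) and P2ry13 (ENSMUSG00000036362, chr3:59207892-59210882, minus strand) are neighbours, 5390 bases apart. Both lie inside Med12l, a gene on the opposite strand, with which P2ry12 shares 9 exonic bases and P2ry13 none. Gpr34 (chrX:13632089-13640858, plus strand) lies within Cask on the opposite strand and shares no exonic base with it. Csf1r (chr18:61105572-61132149, plus strand) shares 871 exonic bases, 17.8% of its exonic length, with Hmgxb3 on the opposite strand, whose count over all libraries was 1.10% of that of Csf1r. Whether the counting used strand is not stated, so it is not known whether reads from these shared bases were assigned to either gene. The remaining genes were Olfml3 (chr3:103722222-103738001), Tmem119 (chr5:113793729-113800516), Siglech (chr7:55768178-55778925), Sall1 (chr8:89027235-89044162), Cx3cr1 (chr9:119901616-120069879) and Aif1 (chr17:35170991-35176068). Cx3cr1 shares 78 exonic bases with Gm33858 on the opposite strand.

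After lesion, all 10 homeostatic genes were at higher mean levels in both genotypes, and none was lower. Averaged over the genotypes, 8 of the 10 rose, by 1.77-fold (Tmem119) to 2.52-fold (Olfml3). A gene was called changed at p under 0.01 and Benjamini-Hochberg adjusted p under 0.05 over all genes tested in edgeR's quasi-likelihood test, and in this average 32.8% of all genes tested were called and 14.2% were called higher. DESeq2 called 8 of the 10 and limma with voom 10 of the 10, against 39.4% and 46.4% of all genes. The median log2 fold change of the 10 genes was 1.08, against -0.28 for all genes tested. Sall1, at 0.69 ± 0.25 on the log2 scale (SE, adjusted p = 0.0404, edgeR), and Siglech, at 0.79 ± 0.29 (SE, adjusted p = 0.0440), missed the threshold of 0.01 on the unadjusted p. The calls depended on the scaling. With the libraries scaled by 12 pan-myeloid genes, described below, edgeR called 0 of the 10, against 1.23% of all genes called higher. All 10 stayed above 0 in that scale, from 0.22 (Sall1) to 0.82 (Olfml3) on the log2 scale. More microglia in the sample and more RNA per microglial cell cannot be told apart in such bulk libraries. The 6 libraries at 4dpl did not lie wholly above the 6 unlesioned libraries for any of the 10 genes, while 7.44% of all genes did.

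**Figure D1:**
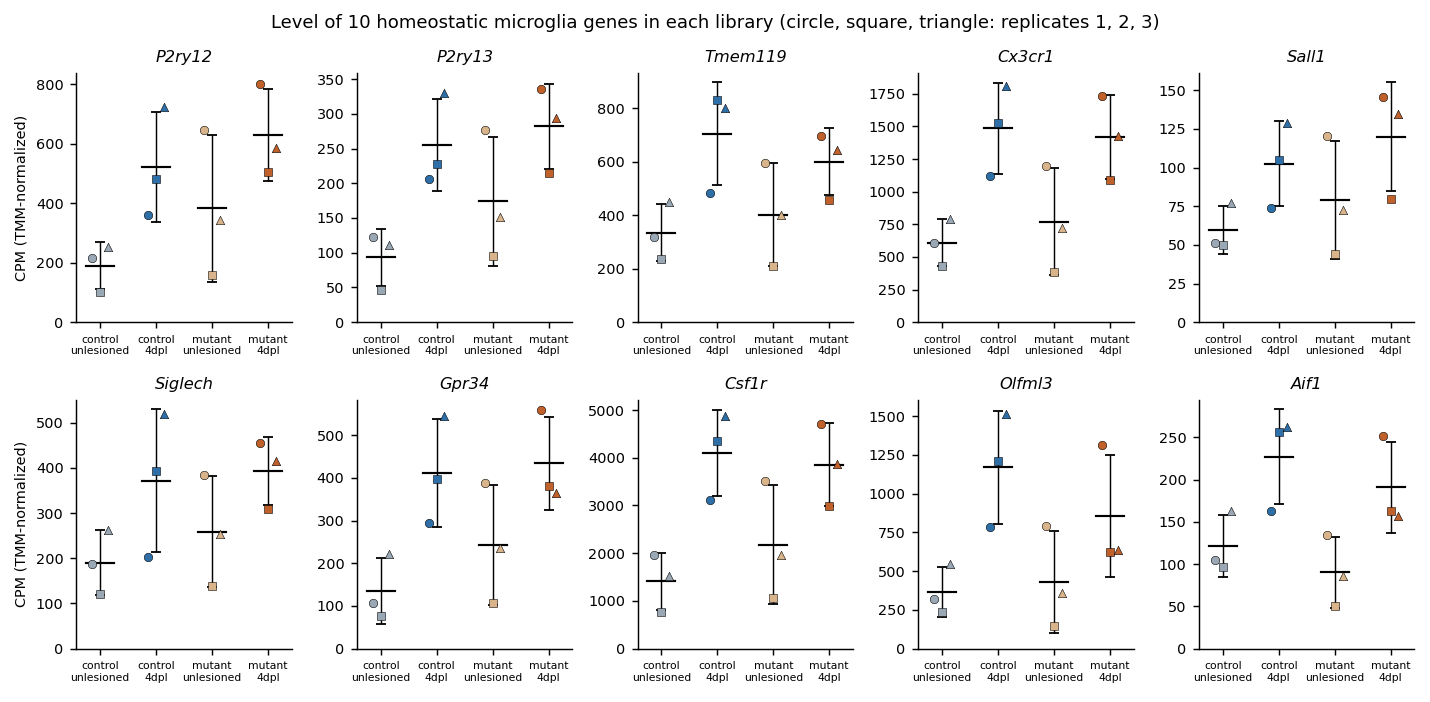
Level of each of the 10 genes in CPM after TMM normalization, by group, with 1 point per library (circle, square and triangle for replicates 1, 2 and 3), a bar for the mean and whiskers for the SD (n = 3). The 4dpl means lie above the unlesioned means of the same genotype in every panel, while replicate 1 of the mutant unlesioned group lies among the 4dpl libraries for most genes.

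The purine receptors come first. P2ry12, the Gi-coupled ADP receptor that directs microglial processes to damaged cells, was at 216, 103 and 252 CPM in the control unlesioned libraries and at 360, 481 and 725 CPM in the control at 4dpl. Mutant libraries had 648, 158 and 345 CPM unlesioned and 802, 504 and 584 CPM at 4dpl. The 3 lesioned control libraries lay above all 3 unlesioned ones, whereas in the mutant the unlesioned replicate 1 lay within the lesioned range. Its log2 fold change of 1.45 ± 0.47 (SE) in the control (adjusted p = 0.0587) and that of 0.72 ± 0.46 (SE) in the mutant (adjusted p = 0.272) missed the test, and only their average, 1.09 ± 0.33 (SE), passed the test (adjusted p = 0.0199, edgeR).

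P2ry13, a second ADP receptor, followed it closely. It was at 122, 46.4 and 112 CPM in the control unlesioned libraries and 207, 228 and 330.5 CPM in the control at 4dpl. Mutant libraries had 276, 94.6 and 151 CPM unlesioned and 336, 215 and 294 CPM at 4dpl. The control ranges were apart and the mutant ranges overlapped. P2ry13 rose in the control by 1.45 ± 0.41 on the log2 scale (SE, adjusted p = 0.0446, edgeR) and in the average by 1.07 ± 0.29 (SE, adjusted p = 0.0126).

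Gpr34, a receptor for lysophosphatidylserine, a lipid shed by stressed cells, had 106, 76.1 and 223 CPM in the control unlesioned libraries and 293, 398 and 545 CPM at 4dpl. Its mutant levels were 388, 107 and 236 CPM unlesioned and 558.5, 380 and 364 CPM at 4dpl. Its lesioned control libraries lay above the unlesioned ones, with replicate 3 of the latter closest. It rose 3.05-fold in the control (log2 1.61 ± 0.47, SE, adjusted p = 0.0453, edgeR) and 2.33-fold in the average (log2 1.22 ± 0.33, SE, adjusted p = 0.0122).

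Of the receptors for protein ligands, Csf1r, the tyrosine kinase through which Csf1 and Il34 keep microglia alive, was the most abundant of the 10. It was at 1956, 773 and 1511 CPM in the control unlesioned libraries and 3113, 4341 and 4870 CPM in the control at 4dpl. The mutant had 3512, 1055 and 1970 CPM unlesioned and 4714, 2987 and 3874 CPM at 4dpl. The control groups did not overlap, and mutant unlesioned replicate 1 again stood among the lesioned libraries. Csf1r rose 2.91-fold in the control (log2 1.54 ± 0.46, SE, adjusted p = 0.0478, edgeR) and 2.27-fold in the average (log2 1.18 ± 0.32, SE, adjusted p = 0.0127).

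Cx3cr1, the receptor for the neuronal chemokine fractalkine (Cx3cl1), was at 606, 429 and 794 CPM in the control unlesioned libraries and 1121, 1527 and 1812 CPM at 4dpl. The mutant libraries were at 1200, 383 and 723 CPM unlesioned and 1735, 1090 and 1425 CPM at 4dpl. The control groups were apart, and in the mutant 8 of 9 pairs of a lesioned and an unlesioned library were higher in the lesioned one. Cx3cr1 had a log2 fold change of 1.29 ± 0.40 (SE) in the control, short of the threshold (adjusted p = 0.0532, edgeR), of 0.88 ± 0.40 (SE) in the mutant (adjusted p = 0.136), and rose by 1.08 ± 0.28 (SE) in the average (adjusted p = 0.0107).

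Siglech, a sialic acid-binding lectin that signals through Tyrobp, ranged from 120 to 264 CPM in the control unlesioned libraries and from 204 to 520 CPM at 4dpl. Mutant libraries ranged from 138 to 384.5 CPM unlesioned and from 308.5 to 454 CPM at 4dpl. Both pairs of ranges overlapped. Tmem119, a membrane protein used as a microglia marker, ranged from 238 to 449 CPM in the control unlesioned libraries and from 482 to 829 CPM at 4dpl, which did not overlap. In the mutant Tmem119 ranged from 211 to 596 CPM unlesioned and from 458 to 697 CPM at 4dpl, and its average log2 fold change was 0.82 ± 0.27 (SE, adjusted p = 0.0260, edgeR).

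Olfml3, which encodes a secreted matrix protein, had the largest log2 fold change of the 10 in the control and in the average. It was at 319, 234 and 546 CPM in the control unlesioned libraries and 786, 1213 and 1514 CPM at 4dpl. Its mutant levels were 791, 146 and 356 CPM unlesioned and 1312 (replicate 1), 622 and 639.5 CPM at 4dpl. Control libraries differed by log2 1.68 ± 0.54 (SE), where the groups were apart but the test was missed (adjusted p = 0.0577, edgeR), and it rose by 1.33 ± 0.38 (SE) in the average (adjusted p = 0.0150).

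Aif1 encodes Iba1, an actin-binding protein of microglia and other macrophages. It was at 105, 96.1 and 163 CPM in the control unlesioned libraries and 163, 256 and 263 CPM at 4dpl. The mutant had 134, 50.4 and 86.4 CPM unlesioned and 252, 163 and 156 CPM at 4dpl. Aif1 was the 1 gene of the 10 whose mutant groups did not overlap, and the 1 whose log2 fold change was larger in the mutant (1.08 ± 0.36, SE, adjusted p = 0.0751, edgeR) than in the control (0.91 ± 0.35, SE, adjusted p = 0.0960). In the average it rose by 0.99 ± 0.25 (SE, adjusted p = 0.00973).

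Sall1, the zinc finger transcription factor that holds microglial identity, was the least abundant of the 10. It was at 51.1, 50.2 and 77.3 CPM in the control unlesioned libraries and 74.1, 105 and 129 CPM at 4dpl. Mutant libraries had 120, 44.3 and 72.3 CPM unlesioned and 146, 79.6 and 134 CPM at 4dpl. Its groups overlapped in both genotypes. Sall1 had the smallest log2 fold change of the 10 in the control, 0.78 ± 0.36 (SE, adjusted p = 0.137, edgeR), and 0.60 ± 0.35 (SE) in the mutant (adjusted p = 0.233).

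**Figure D2:**
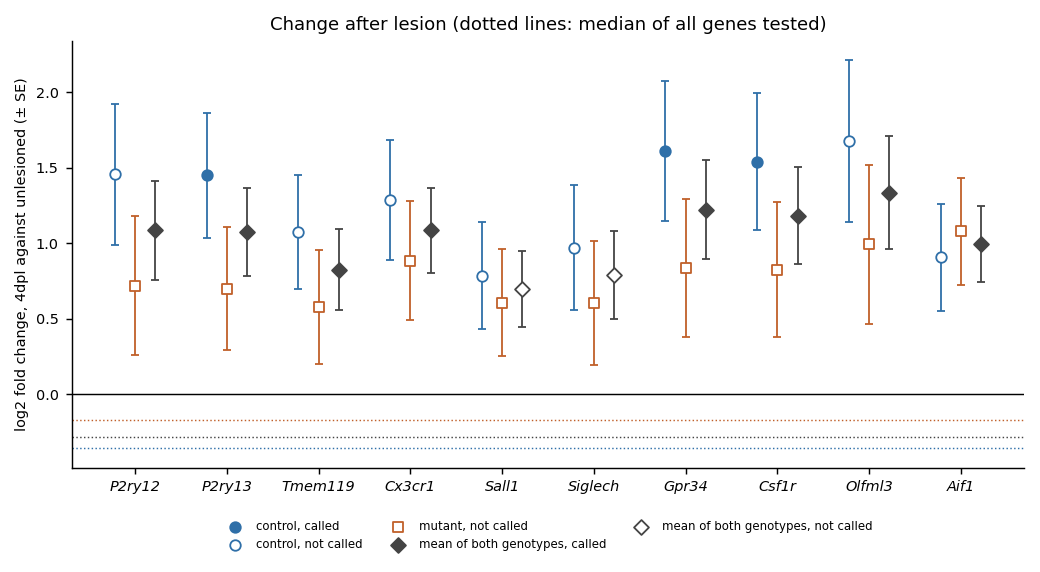
Log2 fold change at 4dpl against unlesioned, with its SE, for each gene in the control, in the mutant and in the mean of both genotypes; filled symbols passed the test and dotted lines give the median of all genes tested. All 30 values lie above 0, with 3 called in the control, 0 in the mutant and 8 in the mean.

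Within the control alone, 3 of the 10 genes rose, P2ry13, Gpr34 and Csf1r, where 10.1% of all genes tested were called and 5.12% were called higher. DESeq2 called 7 of the 10 and voom 9, against 22.5% and 31.1% of all genes. The 10 genes had a median log2 fold change of 1.37 against -0.36 for all genes, and all 10 genes had an unadjusted p under 0.05. The 3 lesioned libraries lay above the 3 unlesioned ones for 7 of the 10 genes, as they did for 16.5% of all genes tested. The count of 3 sat on the threshold, since the adjusted p-values of 8 genes lay between 0.0446 and 0.0960. It fell to 0 without control unlesioned replicate 2 or 3, any of the control 4dpl replicates, mutant unlesioned replicate 3 or mutant 4dpl replicate 1 or 2, was 2 without control unlesioned replicate 1 or mutant 4dpl replicate 3, and was 6 without mutant unlesioned replicate 1 or 2. Where it fell to 0, between 0.003% and 3.13% of all genes tested were called higher, against 5.15% and 4.97% where it was 6.

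In the mutant 0 of the 10 genes were called, where 0.135% of all genes tested were called and 0.0225% were called higher, and 2 genes, Cx3cr1 and Aif1, had an unadjusted p under 0.05. DESeq2 called 0 of them as well, against 17.0% of all genes, and voom called 2, against 21.9%. The 10 genes had a median log2 fold change of 0.77, against -0.18 for all genes, and values ran from 0.58 (Tmem119) to 1.08 (Aif1). With 1 library left out, the value ran from 0.28 to 1.0 for Tmem119, 0.35 to 1.35 for P2ry12, 0.57 to 1.80 for Olfml3 and 0.80 to 1.51 for Aif1. For 1 of the 10 genes, Aif1, the lesioned libraries lay above the unlesioned ones, against 18.8% of all genes tested. Leaving out mutant unlesioned replicate 1, in which these genes were high, raises the fold changes by construction, and 3 of the 10, Cx3cr1, Olfml3 and Aif1, were then called, against 6.36% of all genes called higher. In each of the other 11 fits that left out 1 library 0 of the 10 were called. Of the 8 calls in the average of both genotypes, those of P2ry13, Cx3cr1, Gpr34, Csf1r, Olfml3 and Aif1 were made in each of the 12 fits that left out 1 library. P2ry12 was called in 8 and Tmem119 in 4 of these fits, and the number of the 10 called ran from 6 to 10.

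Between genotypes 0 of the 10 genes were called, whether unlesioned or at 4dpl, as were 0.0% of all genes tested in either comparison. In unlesioned tissue 9 of the 10 had a higher mean in the mutant, with log2 differences from -0.43 ± 0.35 (SE) for Aif1 to 1.01 ± 0.46 (SE) for P2ry12. With 1 library left out, these values ran from 0.39 to 1.39 for P2ry12, 0.38 to 1.2 for P2ry13 and -0.84 to -0.13 for Aif1. They went to both sides of 0 for Tmem119 (-0.14 to 0.58), Cx3cr1 (-0.15 to 0.66), Sall1 (-0.04 to 0.70) and Olfml3 (-0.55 to 0.65). Those of Siglech, Gpr34 and Csf1r stayed above 0. The direction in 4 of the 9 genes thus depended on single libraries. P2ry12 and P2ry13 (0.90 ± 0.41, SE) had an unadjusted p under 0.05, but adjusted p-values of 0.95 and 0.947 in edgeR's quasi-likelihood test, and DESeq2 and voom also called 0 of the 10, against 0.145% and 0.0% of all genes. At 4dpl the differences, mutant minus control, lay between -0.45 ± 0.52 (SE) for Olfml3 and 0.27 ± 0.46 (SE) for P2ry12, with 5 of 10 above 0 and 0 at an unadjusted p under 0.05. DESeq2 and voom called 0 of the 10 at 4dpl, against 0.73% and 0.109% of all genes. The mutant libraries lay wholly above the control ones for 0 of the 10 genes in either state, as they did for 4.09% of all genes unlesioned and 7.34% at 4dpl. For 9 of the 10 the mutant changed less after lesion, by 0.18 (Sall1) to 0.78 (Gpr34) on the log2 scale, with SEs from 0.50 to 0.74. This difference was called for 0 of the 10 and for 0.0% of all genes tested, with 0 of the 10 at an unadjusted p under 0.05 and 0 called by DESeq2 or voom. A lesion effect that differed 2-fold by genotype lies about 2 such SEs or fewer from 0.

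Per kilobase of exon (RPKM, CPM divided by exonic length), Csf1r stood first and Sall1 last in each of the 4 groups. In the control unlesioned libraries the levels were 289 ± 122 RPKM (SD, n = 3) for Csf1r, 144.5 ± 46.1 (SD) for Tmem119, 135 ± 40.5 (SD) for Cx3cr1 and 79.1 ± 23.8 (SD) for Aif1. They continued with 74.8 ± 30.6 RPKM (SD) for P2ry12, 64.5 ± 37.1 (SD) for Gpr34, 59.5 ± 26.2 (SD) for Olfml3, 56.2 ± 21.3 (SD) for Siglech, 36.9 ± 16.2 (SD) for P2ry13 and 11.3 ± 2.92 (SD) for Sall1. Neighbours in this order overlapped in range except P2ry13 and Sall1. In the control at 4dpl Csf1r reached 841 ± 184.5 RPKM (SD, n = 3), apart from Cx3cr1 in the second place at 330.0 ± 77.1 (SD), and Sall1 had 19.5 ± 5.20 (SD). The mutant at 4dpl had the same order of all 10 genes, from 790 ± 177 RPKM (SD, n = 3) for Csf1r to 22.8 ± 6.71 (SD) for Sall1. Aif1 was in the fourth place in the control unlesioned libraries and in the ninth, at 58.9 ± 27.4 RPKM (SD, n = 3), in the mutant unlesioned ones.

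The 10 genes moved as a block from library to library, also within groups. Over the 45 pairs of genes, Pearson's r of the log2 CPM across the 12 libraries was between 0.698 and 0.981, with a median of 0.926, and after each group's mean was removed it was between 0.766 and 0.984, with a median of 0.922. CPM is scaled for depth, but the libraries also differed in the levels of neutrophil and erythroid genes. Whether a differing mixture of cells made the 10 genes move together was not tested. The mean log2 CPM of the 10 genes was 7.82, 7.17 and 8.23 in the control unlesioned libraries and 8.59, 9.13 and 9.43 in the control at 4dpl. The mutant means were 8.95, 7.24 and 8.17 unlesioned and 9.39, 8.70 and 9.0 at 4dpl. Unlesioned replicate 1 of the mutant was above control 4dpl replicate 1 and mutant 4dpl replicate 2. The SD of log2 CPM within groups, from 0.49 for Aif1 to 0.79 for Olfml3, fell to 0.076 for Cx3cr1 and at most 0.29 for Olfml3 when each gene was set against the mean of the other 9. This removed between 78.9% (Sall1) and 97.9% (Cx3cr1) of the variance within groups.

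The level of the block ran opposite to that of the neutrophil genes. In each of the 4 groups the library with the highest summed level of the neutrophil genes had the lowest mean of the homeostatic genes. In the mutant unlesioned group the 6 neutrophil genes summed to 26595, 106696 and 63668 CPM, and the 10 homeostatic genes to 8049, 2387 and 4592 CPM. In the control unlesioned group the neutrophil sums were 83069, 91144 and 42167 CPM beside homeostatic sums of 3984, 2167 and 4390 CPM. At 4dpl the neutrophil sums were 31618, 25872 and 27271 CPM in the control, beside 6803, 9770 and 11506 CPM, and 19217, 97128 and 29520 CPM in the mutant, beside 11007, 6807 and 8530 CPM. All 6 neutrophil genes were detected in each group. After lesion 0 of the 6 were called in the control, the mutant or the average, against 10.1%, 0.135% and 32.8% of all genes. The median change of the 6 on the log2 scale was -1.41 for control and -0.43 for mutant tissue. The 5 erythroid genes had medians of -1.25 and 0.33, also with 0 called, and the library with most erythroid RNA had the lowest mean of the homeostatic genes in 2 groups and the highest in 2. The part of these cells in the rise of the homeostatic genes was not tested.

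**Figure D3:**
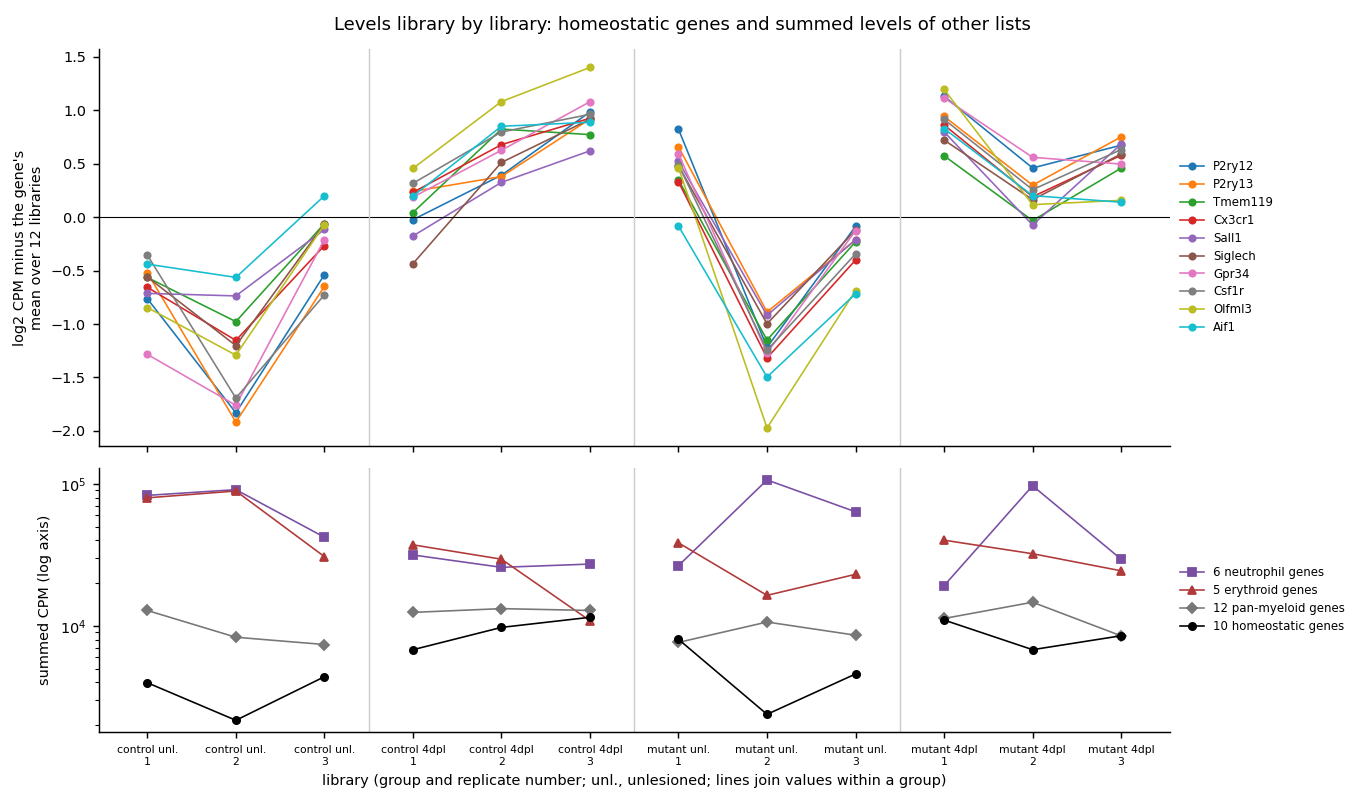
Top, log2 CPM of each gene minus its own mean over the 12 libraries, and bottom, the summed CPM on a log axis of the neutrophil, erythroid, pan-myeloid and homeostatic genes, library by library; lines join the values of 1 gene or list within a group. The 10 genes go up and down together, and the library with the most neutrophil RNA in each group has the fewest homeostatic transcripts.

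Scaling the libraries by 12 pan-myeloid genes, such as Ptprc, Itgam and Spi1, which neutrophils express too, gave levels relative to all myeloid RNA. It moved the median log2 fold change of all genes tested in the average over genotypes to -0.72. All 10 homeostatic genes stayed above 0, from 0.22 ± 0.33 (SE) for Sall1 to 0.82 ± 0.40 (SE) for Olfml3, but 0 of them passed the edgeR test in that scale, the lowest adjusted p being 0.079 for Csf1r, where 1.23% of all genes were called higher.

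Set against the other 9, the genes showed differences among themselves that the shared movement hides. These are log2 CPM minus the mean log2 CPM of the other 9, given as a description with no test. P2ry12 was at -0.07, -0.54 and -0.28 in the control unlesioned libraries and -0.10, -0.25 and 0.08 in the control at 4dpl. Its mutant values were 0.44, 0.07 and 0.29 unlesioned and 0.28, 0.31 and 0.21 at 4dpl, above the control libraries of the same treatment in both. Aif1 went the other way, at -1.23, -0.65 and -0.98 in the control unlesioned libraries and -2.09, -1.76 and -1.93 in the mutant unlesioned ones, which did not overlap. At 4dpl the means of Aif1 were -1.40 ± 0.15 (control, SD, n = 3) and -1.66 ± 0.21 (mutant, SD, n = 3), with overlapping ranges. Tmem119 and Cx3cr1 were wholly lower in the mutant unlesioned libraries, with mean differences of -0.21 and -0.17, and Olfml3 was wholly lower in the mutant at 4dpl, by a mean difference of -0.52. In all, the genotypes were apart for 4 of the 10 genes unlesioned and 2 at 4dpl. Of all other genes set against the mean of the 10, 4.32% and 6.77% were apart. These shares are not like for like, here or after lesion below, and no enrichment is read from them. Setting each of the 10 against the other 9 removed 78.9% (Sall1) to 97.9% (Cx3cr1) of its variance within groups, which was not measured for other genes. The 10 values are also tied, since a gene that is higher sets the others lower.

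After lesion in the control, Sall1 moved from a mean of -2.08 ± 0.35 (SD, n = 3) to -2.67 ± 0.03 (SD, n = 3) against the other 9, Siglech from -0.27 ± 0.05 (SD) to -0.68 ± 0.30 (SD) and Aif1 from -0.95 ± 0.29 (SD) to -1.40 ± 0.15 (SD). Olfml3 moved up, from 0.76 ± 0.20 (SD) to 1.21 ± 0.06 (SD). For these 4 genes of the 10 the ranges of the control groups did not overlap, as for 58.9% of all other genes when set against the mean of the 10, so that the count itself says nothing particular about them. In these control libraries Sall1, Siglech and Aif1 thus stood lower against the other 9 at 4dpl and Olfml3 higher. This describes the libraries and does not set the 4 genes apart from other genes. In the mutant the same 4 genes had overlapping ranges and Cx3cr1 alone of the 10 did not, against 32.4% of all other genes, and the difference for Aif1 had the opposite sign, 0.27. Cx3cr1 moved most closely with the block and stayed between 1.43 and 1.75 in all 12 libraries.

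**Figure D4:**
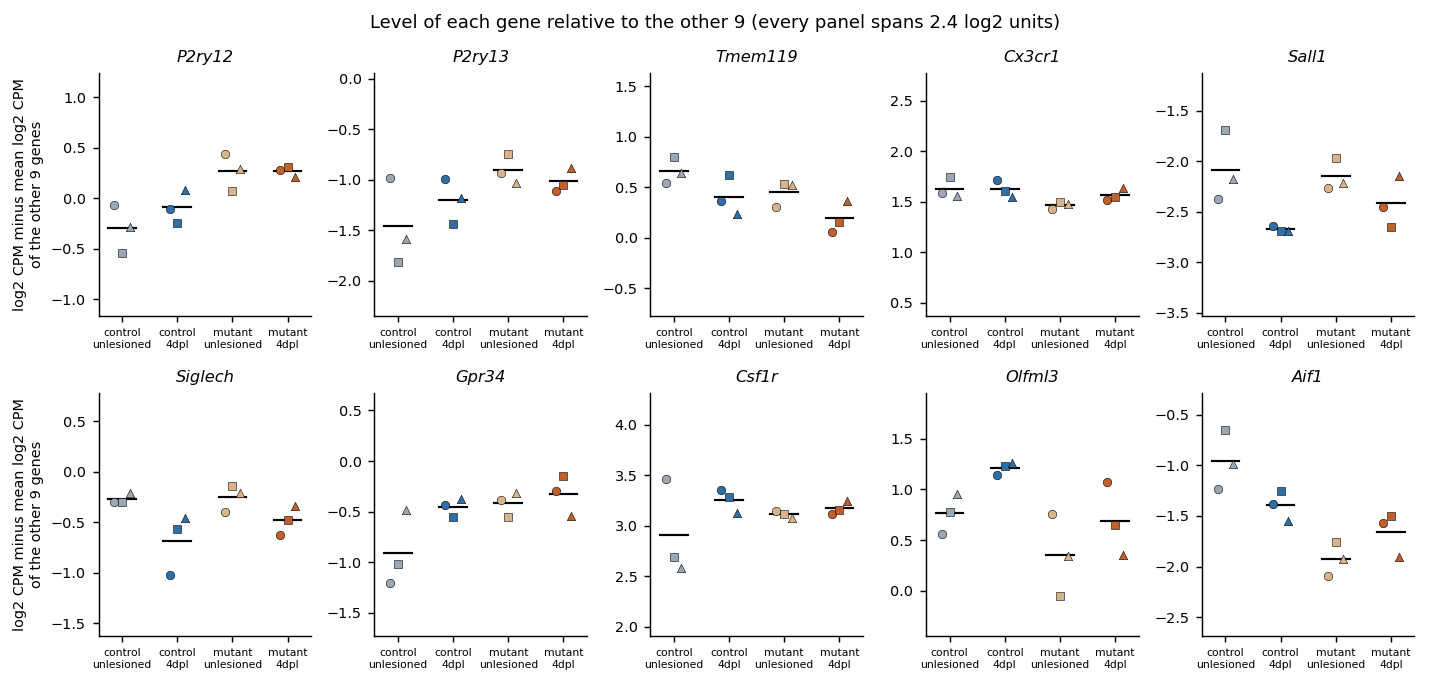
Log2 CPM of each gene minus the mean log2 CPM of the other 9, by group, with 1 point per library and a bar for the mean (n = 3); each panel spans the same number of log2 units around its own centre. P2ry12 is higher and Aif1, Tmem119 and Cx3cr1 are lower in the mutant unlesioned libraries than in the control unlesioned ones, and Sall1 is lower in the control at 4dpl than unlesioned.

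The genes whose levels ran most like those of the members were sought among 13604 other genes with a mean log2 CPM of at least 1, by Pearson's r over the 12 libraries. For P2ry12 they included Tubgcp5 (r = 0.981), Hpgd (0.979), Abca9 (0.978) and Slc5a3 (0.973). For Csf1r they were Slco2b1 (0.992), Slc46a3 (0.990), Golm1 (0.988), Ptgs1 (0.985) and Pros1 (0.985). Hpgd, Slco2b1, Golm1 and Pros1 belong to the list of other homeostatic genes described next. Tubgcp5 was also the nearest to P2ry13 (0.990). The nearest gene was Lrrc3 for Tmem119 (0.994), Plxdc2 for Cx3cr1 (0.994), Eng for Sall1 (0.961), AC102342.2 for Siglech (0.984), Hdac9 for Gpr34 (0.979), Xlr for Olfml3 (0.981) and Ccl3, a chemokine, for Aif1 (0.979).

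The wider homeostatic program was read from 25 other genes of resting microglia. In the average over genotypes 15 of the 25 rose and 0 fell, with a median log2 fold change of 0.82, where 14.2% of all genes tested were called higher and 32.8% in either direction, the shares against which the other lists are read too. Mertk, a phagocytic receptor that binds bridging proteins such as Pros1, rose by 1.39 ± 0.29 (SE, adjusted p = 0.00509, edgeR), Golm1 by 1.44 ± 0.32 (SE, adjusted p = 0.00605) and Tgfbr1, a receptor of TGF-beta, by 1.21 ± 0.27 (SE, adjusted p = 0.00649). Trem2, a lipid receptor of the disease-associated list as well, rose by 1.21 ± 0.27 (SE, adjusted p = 0.00631). In the control 7 of the 25 rose, where 5.12% of all genes were called higher, and in the mutant 0 were called.

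Ligands and partners of the members were called about as often as all genes. Of 14 genes, 4 rose and 1 fell in the average, with a median log2 fold change of 0.38, against 32.8% of all genes called. Tgfb1, the cytokine that maintains the homeostatic state, was at 121, 47.5 and 60.8 CPM in the control unlesioned libraries and 127, 147 and 136 CPM at 4dpl, and rose by 0.75 ± 0.22 (SE, adjusted p = 0.0169, edgeR) in the average. Tgfb3 rose by 1.14 ± 0.30 (SE), Entpd1, which breaks down ATP and ADP, by 0.78 ± 0.21 (SE), and Nrros, which anchors latent TGF-beta on microglia, by 0.64 ± 0.19 (SE), with adjusted p-values from 0.0116 to 0.0181. The gene that fell was Entpd2, another ectonucleotidase, by 1.38 ± 0.42 on the log2 scale (SE, adjusted p = 0.0206, edgeR). Its level was low, between 0.12 and 0.88 CPM over the 12 libraries. Of the ligands of Csf1r, Csf1 had a log2 fold change of 1.05 ± 0.38 (SE, adjusted p = 0.0409, edgeR), which missed the threshold on the unadjusted p, and Il34, below 1.5 CPM in every library, had -0.81 ± 0.45 (SE, adjusted p = 0.157). Cx3cl1, the ligand of Cx3cr1, stayed between 2.53 and 5.81 CPM and had 0.29 ± 0.23 (SE, adjusted p = 0.311).

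Among 15 transcription factors of microglia 7 rose in the average and 0 fell, with a median of 0.51, against 14.2% of all genes called higher. They included Irf8 (0.75 ± 0.18, SE, adjusted p = 0.00864, edgeR), Irf5 (0.82 ± 0.22, SE, adjusted p = 0.0131), Mef2a (0.94 ± 0.26, SE, adjusted p = 0.0136) and Egr1 (0.76 ± 0.22, SE, adjusted p = 0.0164), the last a gene that tissue dissociation also induces. Spi1, whose product binds the purine-rich motif sought above, had 0.01 ± 0.23 (SE, adjusted p = 0.963). Of 9 other purine receptors and relatives that could be tested, 3 rose, against the same 14.2%, the ATP-gated channels P2rx4 (1.34 ± 0.21, SE, adjusted p = 0.00257) and P2rx7 (1.11 ± 0.20, SE, adjusted p = 0.00337) and the UDP receptor P2ry6 (1.35 ± 0.23, SE, adjusted p = 0.00293). P2ry2 had 0.99 ± 0.35 (SE, adjusted p = 0.0378) and missed the threshold on the unadjusted p.

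The disease-associated genes, which reactive microglia express, rose beside the homeostatic ones. Of 20 such genes 15 rose in the average and 0 fell, with a median of 1.34, against 14.2% of all genes called higher, and their summed level was between 10775 and 23564 CPM in the control unlesioned libraries and between 77206 and 78606 CPM at 4dpl. In the mutant the sums were between 7144 and 17678 CPM unlesioned and between 35759 and 58589 CPM at 4dpl. Ctsb, a lysosomal protease, rose by 2.18 ± 0.34 (SE, adjusted p = 0.00257, edgeR), Fabp5, a fatty acid carrier, by 1.93 ± 0.24 (SE, adjusted p = 0.0019), Cd63 by 1.34 ± 0.18 (SE, adjusted p = 0.00204) and Cst7 by 1.31 ± 0.20 (SE, adjusted p = 0.00231).

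Genes of infiltrating and border macrophages, cells that share Csf1r, Cx3cr1 and Aif1 with microglia to differing degrees, went in both directions. Of 15, 4 rose and 1 fell in the average, with a median of 0.13, a share near the 32.8% of all genes called. Pf4 rose by 2.89 ± 0.41 (SE, adjusted p = 0.00213, edgeR), Ms4a7 by 3.12 ± 0.54 (SE, adjusted p = 0.00298), Arg1 by 2.94 ± 0.71 (SE, adjusted p = 0.00836) and Mrc1 by 1.48 ± 0.42 (SE, adjusted p = 0.0155). The value of Arg1 joins 1.13 in the control, where unlesioned replicate 1 was at 406.5 CPM and the others at 15.0 and 20.3 CPM, with 4.74 in the mutant. Plac8, a monocyte gene, fell by 0.93 ± 0.30 on the log2 scale (SE, adjusted p = 0.0258, edgeR), and the monocyte gene Ly6c2 had -0.92 ± 0.38 (SE, adjusted p = 0.0632). The 15 genes summed to between 11599 and 24582 CPM in the control unlesioned libraries and between 18248 and 26857 CPM at 4dpl, and in the mutant to between 8400 and 25424 CPM unlesioned and between 12885 and 31843 CPM at 4dpl. The part of these cells in the levels of Csf1r, Cx3cr1 and Aif1 was not tested. Against 14.2% of all genes called higher, 4 of the 12 pan-myeloid genes rose, Ly86, Laptm5, Itgam and Cd53, 0 fell, and their median was 0.38.

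**Figure D5:**
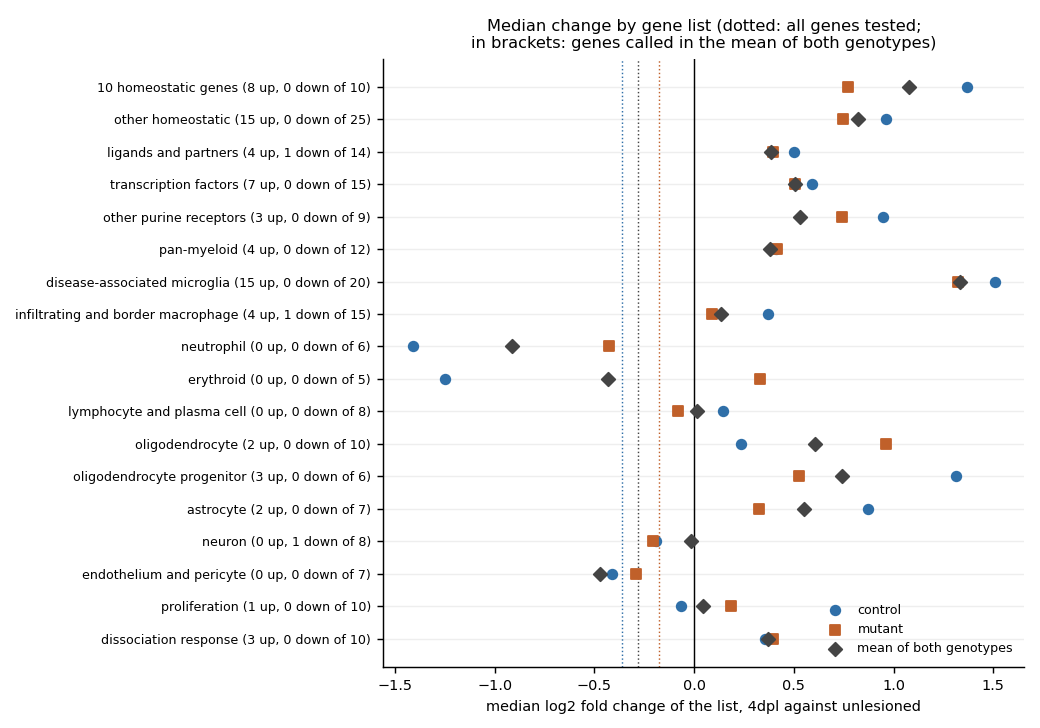
Median log2 fold change at 4dpl against unlesioned of each gene list in the control, in the mutant and in the mean of both genotypes, with the number of genes called higher and lower in that mean in brackets and dotted lines for the median of all genes tested. The homeostatic lists lie to the right of 0 in both genotypes, below the disease-associated list, and the neutrophil list lies to the left.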

How the data were processed

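RNA-seq of 12 Percoll-enriched spinal cord libraries was used. The authors aligned reads with BWA to mm10 and deposited raw counts of uniquely aligned reads on exons, from featureCounts with Ensembl gene models of GRCm38, one table per library. The submitters' processing notes name STAR and DESeq2 1.2.5 instead, and the difference could not be settled here. Strand was not stated. The groups were read from the sample labels.

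Counts were tested in R 4.3.3 with edgeR 4.0.16 (filterByExpr, TMM, glmQLFit, glmQLFTest) in a model of the 4 group means, and SEs were derived from the log2 fold change and F. Called genes had p under 0.01 and Benjamini-Hochberg adjusted p under 0.05 over all genes tested. Contrasts were the lesion effect in each genotype and their average, the genotype effect in each state, and the interaction. log2 CPM used a prior count of 2. Fits were tested on simulated counts. The 10 genes and the 17 other gene lists were chosen with earlier results of these data known. Beside the 10 genes, those named were Csf1, Il34, Cx3cl1 and Tgfb1, the genes overlapping a member, Tet1 and Olig1 as label checks, up to 4 genes with the smallest average-lesion p per list, and the most correlated genes, 5 each for P2ry12 and Csf1r and 1 for each other gene. Spi1, Mbp, Ptprc and Itgam were also named as list members. Some genes are not reported here. Alternatives were DESeq2 1.42.0, the compared groups alone, RLE, scaling by pan-myeloid genes, no filter, edgeR with legacy set to false, limma 3.58.1 with voom and sample weights, replicate blocks, and leaving out each library. Within groups the libraries differed by far more than sampling noise (chi-square per gene at least 78.3).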

Additional observations from a re-analysis of the deposited data

How the results depend on the processing

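The lesion changes of all 10 genes kept their direction in both genotypes and in the average under every setting run, but the number called depended on the setting. In the control, where 3 were called, it was 7 with DESeq2 and with no filter on low counts, 9 with voom, 6 with legacy set to false, 0 when only the compared groups were fitted and 0 when scaled by pan-myeloid genes, and 0 to 6 with 1 library left out. In the mutant it was 2 with voom and 0 to 3 with 1 library left out, against 0. In the average it was 0 when scaled by pan-myeloid genes, against 8, and between 6 and 10 otherwise. The cause of these shifts was not tested. Over all genes the control contrast had 3150 calls, 6996 with DESeq2 and 9663 with voom, and the mutant contrast 42, 5295 and 6800.

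The replicate block by label number gave 6 calls in the control and the replicate block by file number gave 0, against 3. Whether the numbers mark libraries of 1 mouse is not known. The deviations of same-numbered libraries from their group means correlated across genes at -0.0703 to 0.189 by label number and -0.0891 to -0.0228 by file number, not above 0.1 in every pair. The genotype comparisons and the interaction had 0 of the 10 called under every setting. Their signs changed, at 4dpl, for Tmem119 (0.0309), Cx3cr1 (0.18) and Csf1r (0.16) when scaled by pan-myeloid genes and for Siglech (-0.0013) with no filter, and in the interaction for Cx3cr1 (0.0494), Sall1 (0.44) and Siglech (0.24) with the replicate block by file number and for Sall1 (0.10) when scaled by pan-myeloid genes.

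With 1 library left out, the mutant minus control difference in unlesioned tissue ran from -0.14 to 0.58 for Tmem119, -0.15 to 0.66 for Cx3cr1, -0.0399 to 0.70 for Sall1 and -0.55 to 0.65 for Olfml3. At 4dpl it ran from -0.24 to 0.0879 for Cx3cr1, -0.22 to 0.33 for Siglech, -0.15 to 0.26 for Gpr34 and -0.26 to 0.0639 for Csf1r. The interaction ran from -0.73 to 0.0805 for Cx3cr1, -0.47 to 0.26 for Sall1, -0.68 to 0.0455 for Siglech, -1.13 to 0.10 for Olfml3 and -0.12 to 0.58 for Aif1.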

Other observations

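Marker lists of the other cells in the suspension were read in the same way, in the average of the lesion effect over genotypes by edgeR's quasi-likelihood test, in which 14.2% of all genes tested were called higher and 32.8% in either direction. Of 10 oligodendrocyte genes 2 rose, Mobp by 1.16 ± 0.28 (SE, adjusted p = 0.00802) and Mbp by 1.16 ± 0.32 (SE, adjusted p = 0.0143). Of 6 progenitor genes 3 rose, Cspg4 by 1.49 ± 0.32 (SE, adjusted p = 0.00533), Pdgfra by 0.92 ± 0.23 (SE, adjusted p = 0.0102) and Gpr17 by 1.22 ± 0.37 (SE, adjusted p = 0.0206). The average joins log2 fold changes of 1.70 in the control and 0.13 in the mutant for Pdgfra and of 2.26 and 0.18 for Gpr17, a difference between genotypes that was not called for either (adjusted p = 0.9999, edgeR). Of 7 astrocyte genes Gfap rose by 1.88 ± 0.24 (SE, adjusted p = 0.0019) and Aldoc by 0.92 ± 0.24 (SE, adjusted p = 0.0114). Of 8 neuronal genes Syt1 fell by 1.15 ± 0.26 on the log2 scale (SE, adjusted p = 0.00621). None of the 7 endothelial and pericyte genes or the 8 lymphocyte and plasma cell genes was called by edgeR.

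Of 10 proliferation genes Pcna rose by 0.49 ± 0.15 (SE, adjusted p = 0.0205), and Mki67 had -0.28 ± 0.26 (SE, adjusted p = 0.396). Of 10 genes that tissue dissociation induces, Atf3 (0.79 ± 0.20, SE, adjusted p = 0.00981), Egr1 (0.76 ± 0.22, SE, adjusted p = 0.0164) and Hspa1a (0.52 ± 0.17, SE, adjusted p = 0.0288) rose. Olig1, the locus that carries Cre, was between 211 and 338 CPM in the control unlesioned libraries, 188 and 201 CPM in the control at 4dpl, 88.7 and 293 CPM in the mutant unlesioned ones and 192 and 623 CPM in the mutant at 4dpl.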
